A study of Mus musculus with 16 samples.

Results

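The miR-26 and miR-101 families are small groups of microRNAs (miRNAs) that repress Ezh2, the histone methyltransferase of Polycomb repressive complex 2, and the members described here are mmu-miR-26a, mmu-miR-26b, mmu-miR-101a and mmu-miR-101b. They were chosen by name, as the 4 entries of the array design with these names among the 611 mouse miRNAs it lists, and all 4 were among the 235 that passed the filter on dim signals. They were measured on 16 one-colour arrays of total RNA from primary mouse embryonic fibroblasts (MEFs) of mixed FVB/n and C57Bl/6 background, 2 arrays for each of 8 groups. The groups were Ercc1-/- and wild type (WT) MEFs at passage 7 (P7) and passage 3 (P3), each grown in 20% or 3% O2. Ercc1-/- cells lack the ERCC1 subunit of a DNA repair endonuclease in every cell type, 20% O2 is the usual culture atmosphere, and the design asked which miRNAs accompany the premature senescence of these cells at late passage. The labels call the 2 arrays of a group independent experiments without naming the embryos, so the p-values measure the spread between these arrays. The paper names 2 independent cell lines per sample, passaged serially, with parallel Ercc1-/- cultures of the same cells in both oxygen levels. Arrays that differ in passage or oxygen can thus share a line, while the main fit treats all 16 arrays as independent. The array probes miRNAs only, so neither Ercc1 nor Ezh2 was measured.

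A miRNA pairs with its target mRNAs mainly through its seed, bases 2 to 8 from the 5′ end, and lowers their stability and translation. Ezh2 places the repressive H3K27me3 mark, which in dividing fibroblasts keeps the Ink4a/Arf locus silent, and both families are best known as repressors of Ezh2 that are lost in several tumours. The miR-26 genes lie in introns of the Ctdsp genes, which code for small phosphatases of the RNA polymerase II tail, and each is processed from the transcript of its host.

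The mature sequences are shown because the members of a family differ so little that the specificity of their probes bears on every value, with the seed in capitals. All 4 members matched an entry of RefSeq (GRCm38.p6), from 5 genes.
mmu-miR-26a-5p: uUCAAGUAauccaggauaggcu
mmu-miR-26b-5p: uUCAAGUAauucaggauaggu
mmu-miR-101a-3p: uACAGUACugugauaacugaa
mmu-miR-101b-3p: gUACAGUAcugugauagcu
MiR-26a comes from both Mir26a-1 (chr9:119031811-119031832, + strand, within Ctdspl) and Mir26a-2 (chr10:126995543-126995564, + strand, within Ctdsp2), so its signal cannot be assigned to one of them. MiR-26b comes from Mir26b (chr1:74394324-74394344, + strand, within Ctdsp1). Counted from the 5′ end of miR-26a, the miR-26 sequences differ by C11U and C21U over 21 aligned bases, outside the seed, and no other mature entry of the RefSeq table has their seed. MiR-101a comes from Mir101a (chr4:101346957-101346977, - strand, within the long noncoding RNA E130102H24Rik) and miR-101b from Mir101b (chr19:29135338-29135356, + strand, within Rcl1, which codes for a protein of ribosomal RNA processing). The RefSeq entry of miR-101b starts 1 base before that of miR-101a, so that its capitals mark a register shifted by 1, and over the 18 bases that align the pair differs by A16G, counted from the 5′ end of miR-101a. The sequences of the probes were not used here, and the share of each signal that comes from the other family member was not tested.

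Each member had 2 probes. Values are log2 of the background-subtracted signal, averaged over spots and probes, after scaling every array to the same mean over the 57 mouse miRNAs above background on all 16 arrays, a set that holds miR-26a. A scaled log2 signal of 1.50 is the floor, set for any lower value. Replicate 1 of every group lay on slide 1 and replicate 2 on slide 2, each slide with its own scan, and the array brightness, that is the mean log2 signal before scaling of those 57 miRNAs, was 9.17 on slide 1 and 7.55 on slide 2. The dimmest array was replicate 2 of Ercc1-/- P7 20% O2, at 5.80. On both slides the P7 arrays held one row and the P3 arrays the other, so passage and array row cannot be told apart. Within each row, every combination of genotype and oxygen held the same column on both slides. Neither genotype nor oxygen can thus be told apart from array column. MiRNAs typical of fibroblasts were found on most arrays: miR-199a-3p, miR-214, miR-21 and miR-22 were above background on all of them. Of the markers of other cell types, 0 of 7 for epithelium, 0 of 2 for liver and endothelium, 1 of 4 for muscle, 1 of 4 for neurons, 3 of 6 for blood and 2 of 5 for embryonic stem cells were above background on any array.

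MiR-26b fell between the passages, and was the only member whose change passed the test in the averaged comparisons. At P7 in 20% O2, miR-26b had a log2 signal of 6.10 and 1.50 (the floor) in Ercc1-/- MEFs, against 7.60 and 2.51 in WT MEFs. At P7 in 3% O2 it had 3.67 and 1.50 (the floor) in Ercc1-/- MEFs, against 5.90 and 4.07 in WT MEFs. In these pairs the first value is that of slide 1, and 4 of the 8 P7 arrays were above background, of which 1 was from Ercc1-/- MEFs. At P3 in 20% O2, miR-26b had 8.37 and 7.16 in Ercc1-/- MEFs and 7.70 and 7.38 in WT MEFs, and at P3 in 3% O2 it had 8.16 and 7.14 in Ercc1-/- MEFs and 7.27 and 6.90 in WT MEFs. All 8 P3 arrays were above background, between 6.90 and 8.37, and 7 of the 8 P7 arrays lay below all of them. The exception was replicate 1 of WT P7 20% O2. In bulk RNA, fewer cells that express a miRNA and less of it per cell cannot be told apart. The plot of member signals by group shows these values beside those of the other members.

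**Figure D1:**
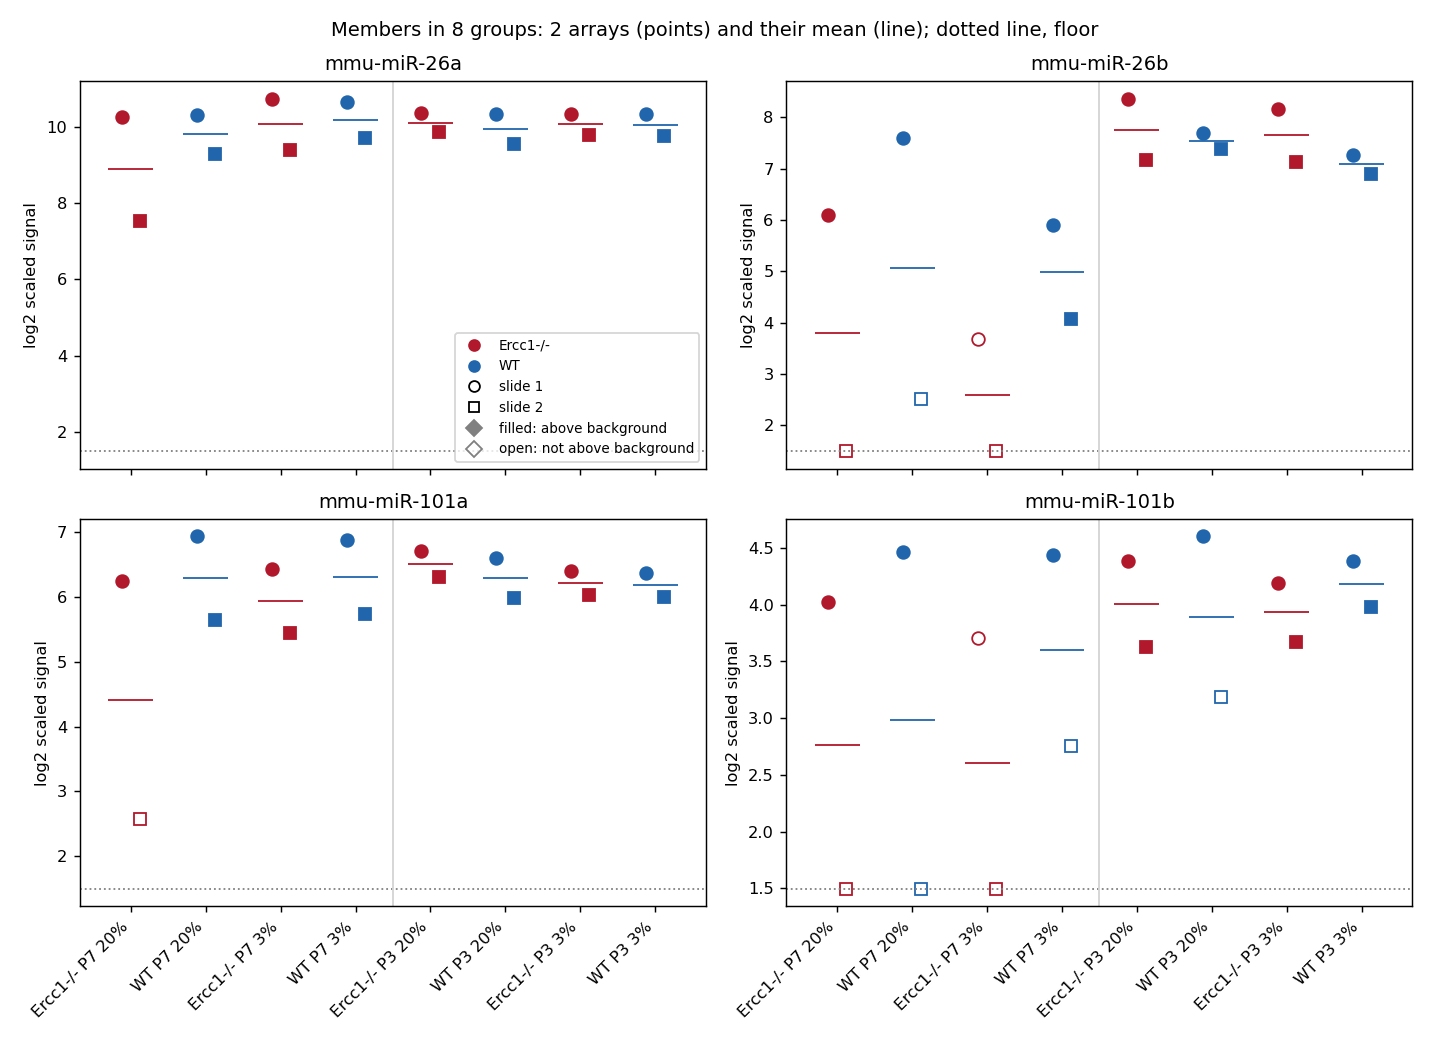
Log2 scaled signal (vertical axis) of the 4 members in the 8 groups (horizontal axis), with 1 point per array, circles for slide 1 and squares for slide 2, open where the miRNA was not above background, a line at the mean of the 2 arrays and a dotted line at the floor of 1.50. MiR-26b is between 6.90 and 8.37 on the P3 arrays and spreads between 1.50 and 7.60 on the P7 arrays, while miR-26a stays between 9.29 and 10.74 on all arrays but one.

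Averaged over genotype and oxygen, the P7 minus P3 change of miR-26b was -3.40 on the log2 scale (SE 0.82, limma adjusted p = 0.00853, 95% interval -5.20 to -1.61), and it was lower at P7 in 8 of 8 pairs of arrays of the same slide, genotype and oxygen. The change was 9.32-fold with Ercc1-/- P7 3% O2 raised to its lowest signal above background. Other P7 values not above background enter that fold as they stand, so it is not a lower bound. These are 1.50 (the floor) in replicate 2 of Ercc1-/- P7 20% O2 and 2.51 in replicate 2 of WT P7 20% O2. The call was lost with the total signal of the software (-2.16, adjusted p = 0.146) and with no filter on dim miRNAs (adjusted p = 0.0521). With normexp background correction, which adds an offset of 50 to each signal before scaling, the change was -0.99 and was called (adjusted p = 0.0162). Within slide 1 the averaged change was -2.06 and within slide 2 it was -4.75. In this comparison 54.9% of the 235 miRNAs tested were called, so that 1 of 4 members called is no larger a share than that of all miRNAs. Of the markers of other cell types, miR-290-5p of the embryonic stem cell list was higher at P7 by 1.43 (adjusted p = 0.0131), the summed signal of that list was 0.0 to 97.5 on the P7 arrays and 0.0 to 40.4 on the P3 arrays, and miR-291a-3p, miR-295 and miR-302a of it were not above background on any array. MiR-294, also of that list, was above background on 0 P7 arrays and 1 P3 array, with 2.08 ± 0.89 at P7 and 2.20 ± 1.41 at P3 (SD, n = 8 each). Of the 6 fibroblast markers, 4 were called, with miR-199a-3p (-2.78, adjusted p = 0.00701) and miR-214 (-1.15, adjusted p = 0.0375) lower and miR-22 (1.47, adjusted p = 0.0120) and miR-145 (1.20, adjusted p = 0.0159) higher at P7, and their summed signal was 9930 to 19249 on the P7 arrays and 11461 to 17768 on the P3 arrays. The part of these marker changes in the change of miR-26b was not tested. The median change was -0.79 over the members and -0.39 over all 235, and under the other scalings tried, no scaling included, the latter lay between -1.14 and -0.11. Ranked from the lowest change, miR-26b was at place 2 of the 235, miR-101b at 86, miR-101a at 111 and miR-26a at 128.

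The passage change of miR-26b differed in size between the groups, but none of its values in a single genotype and oxygen level passed the test, and limma called 0 of 4 members in each of them. In Ercc1-/- MEFs in 3% O2 the change was -5.07 (SE 1.64, adjusted p = 0.0820), at least 20.1-fold with P7 at its lowest signal above background, and it was -4.49 on slide 1 and -5.64 on slide 2. With the slide as a block, a term common to both passages, its adjusted p was 0.0212. It was 0.0409 with a random block for the cell line, read from the genotype with the replicate number. In Ercc1-/- MEFs in 20% O2 the change was -3.96 (adjusted p = 0.110), with -2.27 on slide 1 and -5.66 on slide 2, and without replicate 1 of Ercc1-/- P7 20% O2 it was -6.27 with an adjusted p of 0.0109. The WT changes were -2.48 in 20% O2 (adjusted p = 0.548) and -2.10 in 3% O2 (adjusted p = 0.647). In WT MEFs in 20% O2 the slides disagreed, with -0.09 on slide 1 and -4.87 on slide 2, and without replicate 2 of WT P7 20% O2 the change was 0.064. The passage change in Ercc1-/- minus that in WT MEFs was -2.22 (SE 1.64, adjusted p = 0.769), so a difference between the genotypes was not shown. At an unadjusted p under 0.05, the changes of miR-26b in both oxygen levels of Ercc1-/- MEFs passed, as did 36.6% of all miRNAs tested in 20% O2 and 31.5% in 3% O2. In these comparisons 1.28% of the miRNAs were called in Ercc1-/- MEFs in 20% O2, 0.0% in Ercc1-/- MEFs in 3% O2, 1.28% in WT MEFs in 20% O2 and 0.0% in WT MEFs in 3% O2, and for the difference between the genotypes 0.0%.

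**Figure D2:**
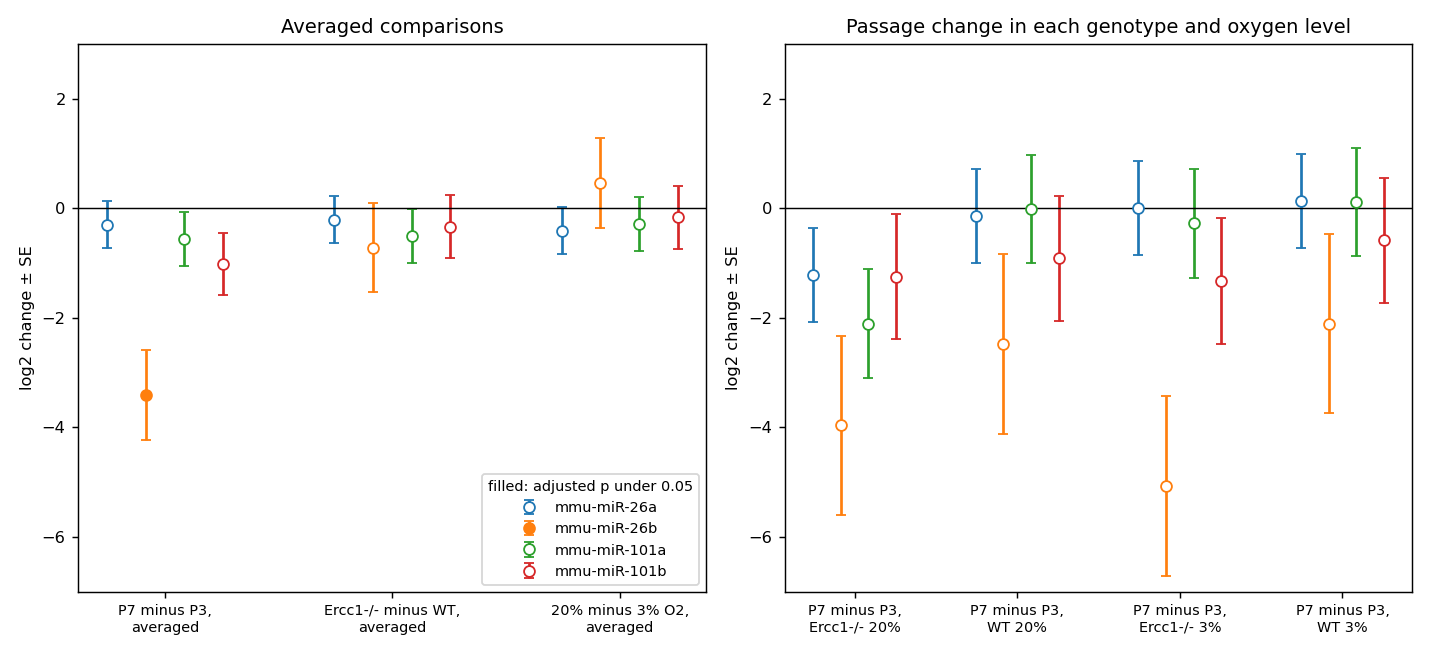
Log2 change with its SE from the limma fit (vertical axis) for the 4 members, in the 3 averaged comparisons (left) and in the passage comparison of each genotype and oxygen level (right), filled where the adjusted p is under 0.05. The one filled point is the averaged passage change of miR-26b at -3.40, and the genotype and oxygen changes of the 4 members lie between -0.72 and 0.46.

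From the lowest group mean to the highest, miR-26b had 2.58 ± 1.54 in Ercc1-/- P7 3% O2, 3.80 ± 3.26 in Ercc1-/- P7 20% O2, 4.98 ± 1.29 in WT P7 3% O2 and 5.05 ± 3.60 in WT P7 20% O2. It then had 7.09 ± 0.27 in WT P3 3% O2, 7.54 ± 0.22 in WT P3 20% O2, 7.65 ± 0.73 in Ercc1-/- P3 3% O2 and 7.76 ± 0.85 in Ercc1-/- P3 20% O2 (SD, n = 2 each). All 4 P7 groups came before all 4 P3 groups. Neighbours in this order differed by less than the larger of their SDs, other than WT P3 20% O2 against WT P3 3% O2, whose arrays did not overlap but whose difference of 0.45 had an adjusted p of 1.0.

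The probes of miR-26b gave the same picture. The P7 minus P3 difference of the means of 8 arrays was -3.27 for the first probe, with 3.82 ± 2.11 at P7 and 7.09 ± 0.54 at P3, and -3.51 for the second, with 4.32 ± 2.39 at P7 and 7.83 ± 0.51 at P3 (SD, n = 8 each). Over the 16 arrays their Pearson r was 0.996. The probes share every array and its brightness, so this r describes the arrays and is not a replicate.

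MiR-26a, which has the same seed, lay between 9.29 and 10.74 on all arrays but one. At P7 in 20% O2 its log2 signal was 10.26 and 7.53 in Ercc1-/- MEFs, against 10.32 and 9.29 in WT MEFs. At P7 in 3% O2 it was 10.74 and 9.40 in Ercc1-/- MEFs, against 10.66 and 9.72 in WT MEFs. The value of 7.53 is from the dimmest array, and slide 1 was higher than slide 2 in every group. At P3 in 20% O2, miR-26a had 10.35 and 9.87 in Ercc1-/- MEFs and 10.33 and 9.56 in WT MEFs, and at P3 in 3% O2 it had 10.34 and 9.80 in Ercc1-/- MEFs and 10.33 and 9.76 in WT MEFs. It was the only member above background on all 16 arrays, and its P7 and P3 ranges overlapped. The averaged passage change was -0.30 (SE 0.43, adjusted p = 0.533, 95% interval -1.24 to 0.64), which was 0.034 with the 75th percentile as the scale and 0.039 without replicate 2 of Ercc1-/- P7 20% O2. In Ercc1-/- MEFs in 20% O2 the change was -1.22 (adjusted p = 0.271). Without replicate 2 of the P7 group it was 0.15, and without replicate 1 it was -2.58 (adjusted p = 0.0123), so that it rests on the dimmest array. MiR-26a is 1 of the 57 miRNAs used for the scaling.

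By group mean, miR-26a had 8.89 ± 1.93 in Ercc1-/- P7 20% O2, 9.81 ± 0.73 in WT P7 20% O2 and 9.94 ± 0.54 in WT P3 20% O2 (SD, n = 2 each). The other 5 groups lay between 10.05 in WT P3 3% O2 and 10.19 in WT P7 3% O2. No neighbours in this order differed by more than the larger of their SDs.

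Within one array the difference between miR-26b and miR-26a does not depend on the scaling where both are above the floor, although its size is not a ratio of amounts because the probes differ. This measure was chosen after its values had been seen. The log2 difference, miR-26b minus miR-26a, was -5.63 ± 1.70 at P7, between -7.90 and -2.72, and -2.53 ± 0.38 at P3, between -3.06 and -1.99 (SD, n = 8 each). At P7, replicate 1 of WT 20% O2 at -2.72 was the one array within the P3 range. The difference between the passages was -3.10, in which 4 of the 8 P7 values come from arrays where miR-26b was not above background. On the 4 P7 and 8 P3 arrays with both miRNAs above background, the means were -4.32 at P7 and -2.53 at P3, a difference of -1.79 that was not tested. By slide the passage difference was -2.21 on slide 1 and -3.99 on slide 2. With normexp background correction it was -0.67, and with the total signal of the software it was -1.79.

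**Figure D3:**
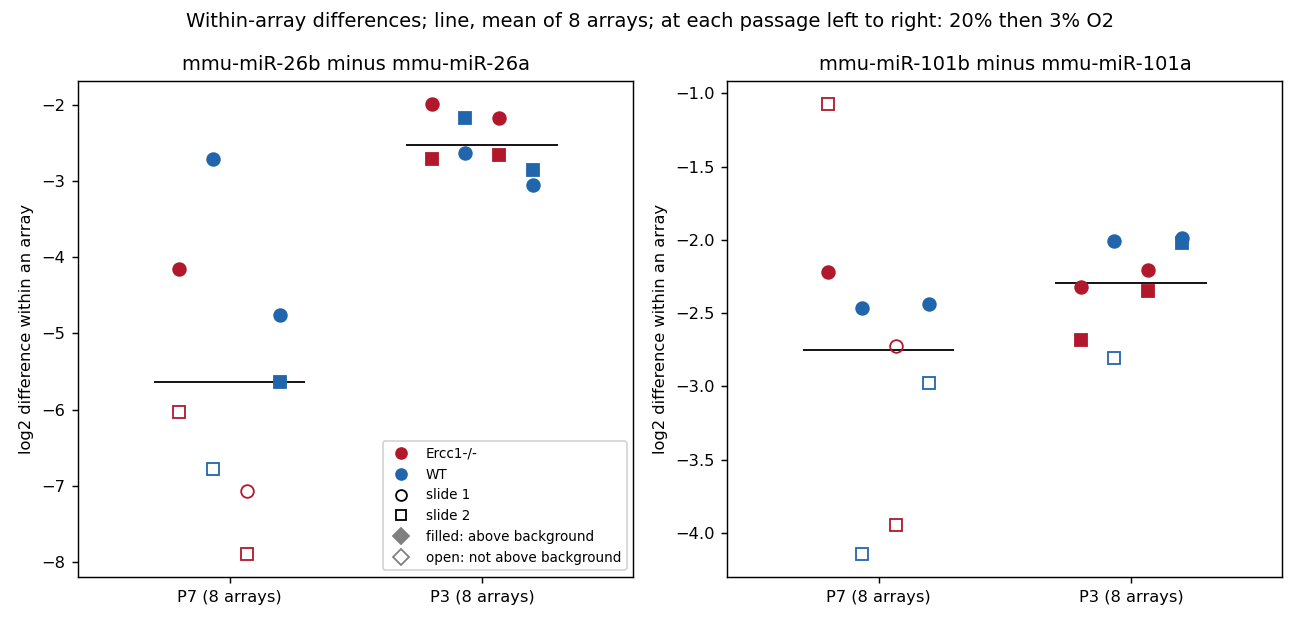
Log2 difference between the family members on each array (vertical axis), miR-26b minus miR-26a on the left and miR-101b minus miR-101a on the right, at P7 and P3 (horizontal axis), with a line at the mean of 8 arrays and open points where a member was not above background. The miR-26 difference is below -4 on 7 of the 8 P7 arrays and between -3.06 and -1.99 on all P3 arrays, and the miR-101 differences overlap between the passages.

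The brightness of the arrays moved with passage, with 5.80 to 9.29 on the P7 arrays and 6.98 to 9.77 on the P3 arrays. MiR-26b was 1.50 (the floor) on the P7 array at 7.06 (Ercc1-/- 3% O2) and 2.51 on the P7 array at 7.08 (WT 20% O2), neither above background, against 7.38 on the P3 array at 6.98 (WT 20% O2). It was 3.67 and 4.07 on the P7 arrays at 7.91 and 7.99, against 7.14 on the P3 array at 8.35. On the brightest P7 array, at 9.29, it was 7.60, against 7.27 and 7.70 on the P3 arrays at 9.31 and 9.34. On the P7 arrays at 8.94 (WT 3% O2) and 9.16 (Ercc1-/- 20% O2) it was 5.90 and 6.10, against 6.90 on the P3 array at 8.65 (WT 3% O2). Only the brightest P7 array thus overlapped with the P3 values. The part of brightness in the size of the change was not tested.

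**Figure D4:**
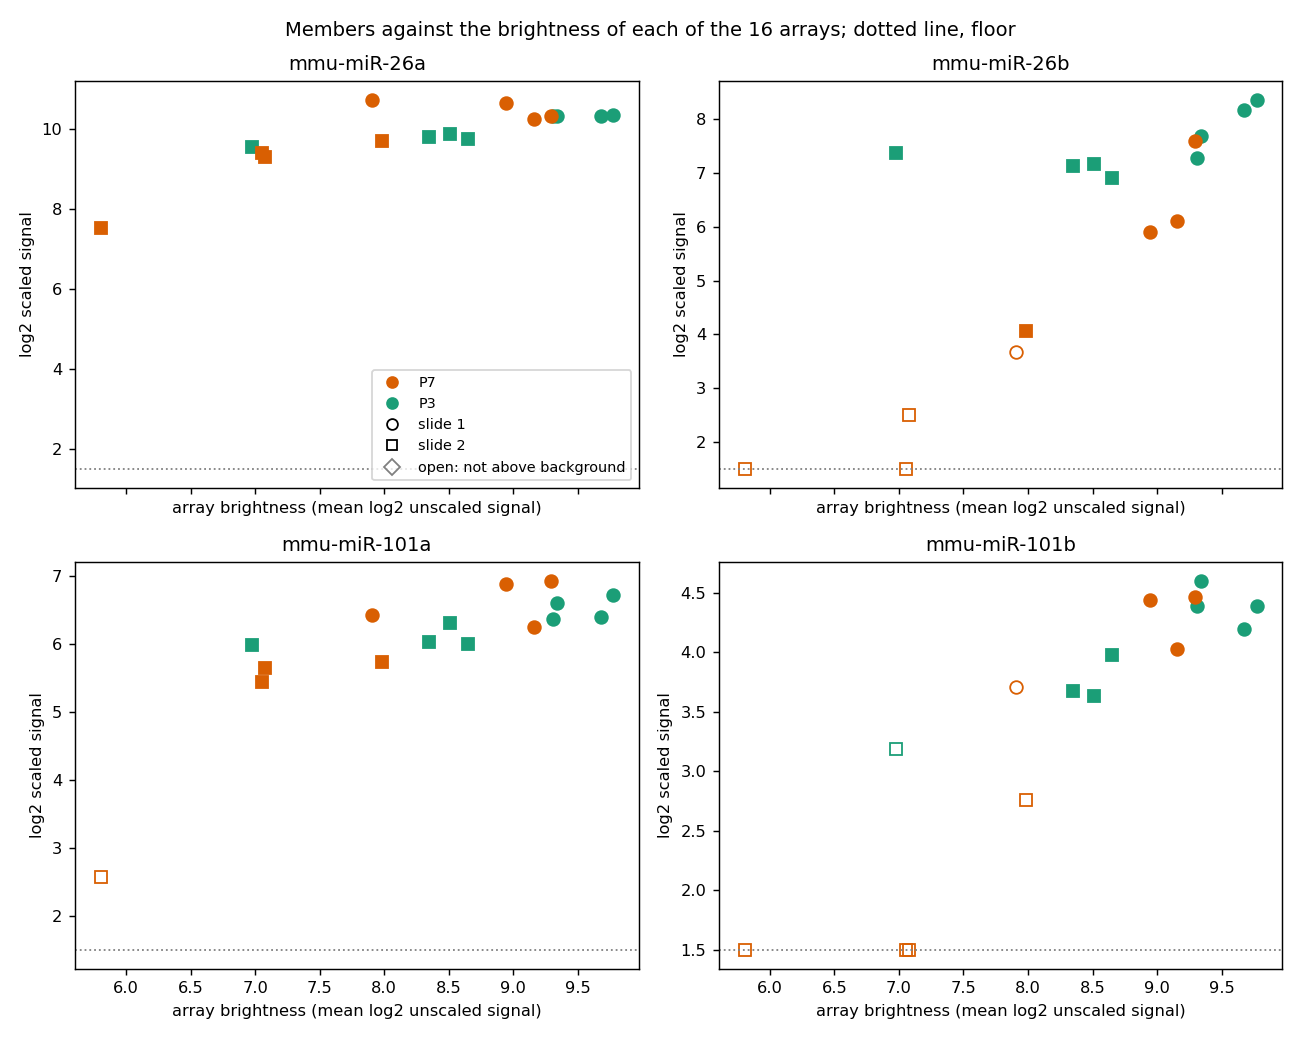
Log2 scaled signal of each member (vertical axis) against array brightness, the mean log2 signal before scaling (horizontal axis), with 1 point per array in orange for P7 and green for P3, circles for slide 1 and squares for slide 2, open where not above background. The miR-26b values of the P7 arrays at 7.06 and 7.08 are 1.50 and 2.51, not above background, beside 7.38 on the P3 array at 6.98, and the lowest values of miR-26a and miR-101a are those of the dimmest array, at 5.80.

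MiR-101a lay between 5.44 and 6.93 on all arrays but the dimmest one. At P7 in 20% O2 its log2 signal was 6.25 and 2.57 in Ercc1-/- MEFs, against 6.93 and 5.64 in WT MEFs, and at P7 in 3% O2 it was 6.43 and 5.44 in Ercc1-/- MEFs, against 6.87 and 5.74 in WT MEFs. At P3 in 20% O2 it was 6.71 and 6.31 in Ercc1-/- MEFs and 6.61 and 5.99 in WT MEFs, and at P3 in 3% O2 it was 6.39 and 6.02 in Ercc1-/- MEFs and 6.37 and 6.00 in WT MEFs. It was above background on 15 arrays, all but the dimmest one, and the P7 and P3 ranges overlapped. The averaged passage change was -0.57 (SE 0.50, adjusted p = 0.330, 95% interval -1.65 to 0.52). Without replicate 1 of Ercc1-/- P7 20% O2 it was -1.03 (adjusted p = 0.0110), without replicate 2 of that group it was -0.11, and with normexp background correction it was 0.17. In Ercc1-/- MEFs in 20% O2 the change was -2.10 (adjusted p = 0.147), with -0.46 on slide 1 and -3.74 on slide 2, and without each replicate of the P7 group in turn it was -3.94 (adjusted p = 0.00197, without replicate 1) and -0.26 (without replicate 2). The group means, from the lowest, were 4.41 ± 2.60 in Ercc1-/- P7 20% O2 and 5.94 ± 0.70 in Ercc1-/- P7 3% O2 (SD, n = 2 each), and the other 6 lay between 6.19 in WT P3 3% O2 and 6.51 in Ercc1-/- P3 20% O2. No neighbours differed by more than the larger of their SDs. The probes of miR-101a had a Pearson r of 0.995 over the 16 arrays and P7 minus P3 differences of -0.54 and -0.59.

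MiR-101b was near background throughout. At P7 in 20% O2 its log2 signal was 4.03 and 1.50 (the floor) in Ercc1-/- MEFs, against 4.46 and 1.50 (the floor) in WT MEFs, and at P7 in 3% O2 it was 3.71 and 1.50 (the floor) in Ercc1-/- MEFs, against 4.43 and 2.76 in WT MEFs. At P3 in 20% O2 it was 4.39 and 3.63 in Ercc1-/- MEFs and 4.60 and 3.18 in WT MEFs, and at P3 in 3% O2 it was 4.19 and 3.67 in Ercc1-/- MEFs and 4.39 and 3.98 in WT MEFs. It was above background on 3 of the 8 P7 arrays and 7 of the 8 P3 arrays, and on 0 of the 4 P7 arrays of slide 2. No P7 group had both arrays above background, so miR-101b passed the filter on dim signals only through P3 groups, and its passage difference is in part set by that filter. The averaged passage change was -1.02 (SE 0.57, adjusted p = 0.142, 95% interval -2.27 to 0.23), and 7 of 8 pairs of arrays, again not independent, were lower at P7. With the slide as a block the adjusted p of this change was 0.0210, to be read with the same limit. Without replicate 1 of WT P7 20% O2 it was -1.39 (adjusted p = 0.0379), without replicate 1 of Ercc1-/- P7 20% O2 it was -1.33 (adjusted p = 0.0448), and with normexp background correction it was 0.37. In Ercc1-/- MEFs in 3% O2 the change was -1.33 (adjusted p = 0.405), at least 1.51-fold with P7 at its lowest signal above background. The group means lay between 2.60 ± 1.56 in Ercc1-/- P7 3% O2 and 4.18 ± 0.29 in WT P3 3% O2 (SD, n = 2 each), again with all 4 P7 groups before all 4 P3 groups and no neighbours that differed by more than the larger of their SDs. Its probes were less alike, with a Pearson r of 0.793 over the 16 arrays, and P7 minus P3 differences of -0.42 for the first, which was at the floor on 5 arrays, and -1.13 for the second. The within-array difference, miR-101b minus miR-101a, was -2.75 ± 0.98 at P7 and -2.30 ± 0.31 at P3 (SD, n = 8 each), a difference of -0.45, with miR-101b at the floor or not above background on 5 of the P7 arrays. Over the arrays with both miRNAs above background the means were -2.38 at P7 (n = 3) and -2.23 at P3 (n = 7), a difference of -0.15.

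As a family average per array, the mean of miR-26a and miR-26b was between 4.51 and 8.96 at P7, with a median of 7.05, and between 8.33 and 9.36 at P3, with a median of 8.66. The mean of miR-101a and miR-101b was between 2.03 and 5.70 at P7, with a median of 4.66, and between 4.58 and 5.60 at P3, with a median of 5.14. The miR-26 average follows miR-26b, since miR-26a varied less.

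No member was called between the genotypes, where limma called 1.7% of all miRNAs in the averaged comparison. Averaged over passage and oxygen, the Ercc1-/- minus WT change was -0.21 for miR-26a (95% interval -1.15 to 0.73), -0.72 for miR-26b (-2.51 to 1.08), -0.50 for miR-101a (-1.59 to 0.58) and -0.34 for miR-101b (-1.59 to 0.92). The adjusted p-values lay between 0.933 and 0.966. A level 2-fold lower in Ercc1-/- MEFs is inside each interval, and one 2-fold higher is inside that of miR-26b, so these arrays do not show that the genotypes are alike. For miR-26b the groups differed most at P7 in 3% O2, at -2.40 (SE 1.64, adjusted p = 0.988) or at least 3.17-fold lower in Ercc1-/- MEFs, where it was not above background on either array, with -2.22 on slide 1 and -2.57 on slide 2. That fold carries no sampling error, and the change did not pass the test. The change of miR-26b averaged over passage and oxygen was positive, at 0.087 and 0.47, with normexp correction and with the total signal of the software. In the single comparisons 0.851% of all miRNAs were called at P3 in 20% O2, 0.0% at P3 in 3% O2, 0.426% at P7 in 20% O2 and 0.0% at P7 in 3% O2, and none of the 16 member changes had an unadjusted p under 0.05. At P7 in 20% O2, the changes of miR-26a and miR-101a were called without replicate 1 of the Ercc1-/- group, which leaves the dimmest array to stand for it.

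Between 20% and 3% O2 no member was called either, against 0.851% of all miRNAs in the averaged comparison and 0.0% in each of the 4 single comparisons. The averaged 20% minus 3% O2 change was -0.41 for miR-26a (95% interval -1.34 to 0.53), 0.46 for miR-26b (-1.33 to 2.26), -0.28 for miR-101a (-1.37 to 0.80) and -0.17 for miR-101b (-1.42 to 1.08), with adjusted p-values of 1.00. None of the 16 single changes had an unadjusted p under 0.05. In the comparison of Ercc1-/- P7 20% O2 with WT P3 3% O2, which sets all 3 factors against each other, 0 of 4 members and 2.55% of all miRNAs were called, and miR-26b differed by -3.29 (adjusted p = 0.187). The passage change in 20% minus that in 3% O2 was called for 0 members and 0.0% of all miRNAs, and for miR-26b it was 0.36 (adjusted p = 0.996). The methods' own criterion, a minimum fold and an unadjusted p from 2 arrays against 2, passed 0 members in each comparison of single groups and between 0 and 21 of the 235 miRNAs.

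Other miRNAs described as repressing Ezh2 were looked at in the same comparison of passages. Of a list of 10, 7 were tested, of which 4 were called lower at P7 and 1 higher. Among all 235 miRNAs tested, 76 were called lower and 53 higher, together 54.9%. Of the 4 called lower, miR-98, let-7a and let-7c share a seed, and the share of each signal that comes from a near copy was not tested. MiR-98, a member of the let-7 group, had 3.06 ± 1.37 at P7 and 5.57 ± 0.31 at P3, a change of -2.50 (SE 0.52, adjusted p = 0.00639), and was above background on 3 of 8 P7 arrays. Let-7a, which is abundant in differentiated cells, had 8.49 ± 1.27 at P7 and 10.84 ± 0.35 at P3, a change of -2.35 (SE 0.49, adjusted p = 0.00639). Let-7c changed by -1.59 (adjusted p = 0.00701) and miR-214, a miRNA of mesenchymal cells, by -1.15 (adjusted p = 0.0375). MiR-30d, with 7.57 ± 0.96 at P7 and 6.42 ± 0.29 at P3 (SD, n = 8 each), was the one that rose, by 1.14 (adjusted p = 0.0321). MiR-25 at -0.32 and let-7b at -0.62 did not pass. MiR-124, miR-137 and miR-138 were not above background on any array. Between the genotypes and between the oxygen levels, 0 of the 7 were called in the averaged comparisons and none had an unadjusted p under 0.05.

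MiR-144 shares 6 of the 7 seed bases of miR-101a, with C8U in the seed, and was not above background on any array. Of the passenger strands, the other strand of each hairpin, miR-26b* and miR-101a* were on the array and neither was above background on any array.

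The miRNAs whose signal was most like that of each member were taken by Pearson r over the 16 arrays, among the 231 other miRNAs tested. For miR-26b they were miR-98 (r = 0.982), let-7f (r = 0.980) and let-7g (r = 0.980), whose averaged passage changes were -2.50, -2.89 and -2.37 (adjusted p = 0.00639 each). Their sequences are shown because they share a seed with each other and not with miR-26b, again in capitals for bases 2 to 8.
mmu-miR-98-5p: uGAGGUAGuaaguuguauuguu
mmu-let-7f-5p: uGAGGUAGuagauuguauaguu
mmu-let-7g-5p: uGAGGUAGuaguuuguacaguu
RefSeq places Mir98 at chrX:151913229-151913250 (+ strand) and Mirlet7g at chr9:106178846-106178867 (+ strand). Let-7f comes from Mirlet7f-1 (chr13:48537889-48537910, - strand) and Mirlet7f-2 (chrX:151912353-151912374, + strand), the latter within Huwe1, as is Mir98. None of these genes lies near Mir26b. The let-7 sequences too are close to each other, and the share of a signal that comes from a near copy was not tested. For miR-26a the most alike were miR-185 (r = 0.940), miR-152 (r = 0.936) and miR-27b (r = 0.924). For miR-101a they were miR-185 (r = 0.931), miR-143 (r = 0.924) and miR-199b* (r = 0.918), and for miR-101b miR-16 (r = 0.957), miR-30b (r = 0.944) and miR-146b (r = 0.931). Among the members, miR-26a was most like miR-101a (r = 0.954) and less like miR-26b (r = 0.611), and miR-26b was more like miR-101b (r = 0.876) than like miR-26a. All these miRNAs share the arrays, their brightness and the slide, so that each r is a description.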

How the data were processed

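The authors processed the scanned one-colour Agilent mouse miRNA arrays with Feature Extraction (version 10.7.1.1 per the file headers), and the deposited intensity values are background-subtracted processed signals per spot, not yet scaled to each other. In the deposited series table there is 1 intensity per miRNA and array, on the linear scale and with no centring, within a ratio of 0.98 to 1.01 by median of the total signal of the software. This table served as an alternative. No spot was saturated. Control and outlier spots were left out. A probe was taken as above background where a share of at least 0.5 of its spots was marked so, and a miRNA where 1 probe or more was. An array had 117 to 257 such mouse miRNAs.

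The test covered the 235 mouse miRNAs above background in some group on each of its 2 arrays. All 16 arrays entered 1 fit with a mean for every group, by limma (version 3.58.1, R version 4.3.3), with empirical Bayes moderation and Benjamini-Hochberg adjustment within each comparison. MiRNAs were called at an adjusted p under 0.05. The script was tested on simulated data. Where a group had no array above background, a change between single groups is given as at least N-fold, against the higher of its own value and the lowest signal above background on each of its arrays. The fold of the averaged passage change of miR-26b raises that group only and is not such a bound. Such a fold takes account of the detection limit only and carries no sampling error. The number of arrays limits the precision.

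Replicate number and slide coincide per the file headers, which is where the pairing comes from. The slide 1 minus slide 2 difference was alike in groups that share the passage (12 pairs of groups, Pearson r across miRNAs with a median of 0.72) and not in groups that do not (16 pairs, 0.034), and every comparison was also fitted with the slide as a block. The block is a term common to both passages, so it cannot take up a slide difference that varies with passage. Normexp correction used the median spot signal and added an offset of 50 to each signal before the scaling. The members, the list of Ezh2-repressing miRNAs, the markers and the tests were chosen with earlier results of these data known. The miRNAs named are the members, their passenger strands, that list, miR-144, and for each member the 3 others with the highest Pearson r.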

Additional observations from a re-analysis of the deposited data

How the results depend on the processing

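Of 242 counts of called members under the alternatives other than leaving out an array, 236 did not differ from those reported. Most of them are counts of 0 in comparisons that called few miRNAs or none, so they had little room to differ. In the averaged passage comparison the count of 1 was 0 with the total signal of the software, with no filter on dim miRNAs and with the test limited to the 57 miRNAs detected everywhere (which leaves miR-26a alone), and 2 with the replicate block. For Ercc1-/- MEFs in 3% O2 the count of 0 was 1 with the replicate block and with the cell line as a random block. The replicate block changed no other call. Leaving out each array in turn gave 1 to 3 in the averaged passage comparison, 0 to 3 for passage in Ercc1-/- MEFs in 20% O2 and for Ercc1-/- P7 20% O2 against WT P3 3% O2, 0 to 2 for genotype at P7 in 20% O2, and 0 to 1 for oxygen in Ercc1-/- MEFs at P7.

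The averaged passage change of miR-26b had the same sign under every alternative tried, between -4.08 with a lower floor and -0.99 with normexp correction. It missed the threshold with the total signal (-2.16, adjusted p = 0.146) and with no filter (-3.40, adjusted p = 0.0521). Without each array it was -4.04 to -2.77, with adjusted p-values of 0.000973 to 0.0257.

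Uncalled changes turned sign as follows. With the 75th percentile scale, miR-26a by passage was 0.034. With normexp correction, miR-101a was 0.17 by passage, 0.16 by oxygen and 0.052 by passage in Ercc1-/- MEFs in 20% O2. MiR-101b was 0.37 by passage, 0.074 by genotype, 0.13 by oxygen and 0.66 by passage in Ercc1-/- MEFs in 3% O2, and miR-26b was 0.087 by genotype. With the total signal, miR-26b was 0.47 by genotype, -0.41 by oxygen and 0.068 for the passage change in Ercc1-/- minus WT, and miR-101b was 0.52 by genotype. Without each array, miR-26a was -0.65 to 0.039 by passage, -0.55 to 0.13 by genotype and -2.58 to 0.15 by passage in Ercc1-/- MEFs in 20% O2, and miR-26b was -0.17 to 1.10 by oxygen and -5.03 to 0.064 by passage in WT MEFs in 20% O2. MiR-101a was -0.74 to 0.18 by oxygen, and miR-101b was -0.71 to 0.035 by genotype and -0.54 to 0.20 by oxygen. The normexp offset of 50 is added to each linear signal before scaling, while the log2 scaled signal of miR-101b without that correction was at most 4.60. The cause of these turns was not tested. The within-array difference of miR-26b and miR-26a, an alternative chosen after seeing the data, kept its sign in all 10 settings with every array or every array of 1 slide and in all 16 that leave out 1 array. Settings that change only the scale could move this difference little, so its sign in them is no support.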
